A study of Mus musculus with 17 samples.

Results

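The Bcl2 family decides whether mitochondria release the factors that start apoptosis. The genes described here were chosen by name, as a list of 10: the BH3-only activators and sensitisers Bcl2l11 (Bim), Bid, Bbc3 (Puma) and Pmaip1 (Noxa), the pore-forming or pore-related effectors Bax, Bak1 and Bok, and the survival proteins Bcl2, Bcl2l1 (Bcl-xL) and Mcl1. Of the 10, 9 were measured among 12393 genes, each read by its probe set of highest mean level. Bax was not analysed, because the probe table used here names no probe set for it.

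Affymetrix arrays were hybridised with RNA of 17 mammary tumours from FVB mice, 1 array for each. All tumours arose from a Myc transgene with the T58A change driven by MMTV, a promoter used in mammary epithelium, and all are labelled as low expressing. The histology label gives 9 Squamous, 6 EMT (epithelial to mesenchymal transition), 1 Papillary and 1 Microacinar tumour, and the labels give no ages. No tumour with wild-type Myc and no normal gland was among the samples, so values are compared between tumours that all carry T58A Myc. Numbers after a label only tell its tumours apart. Squamous 7 and Squamous 8 share a number in their titles, as do Squamous 5 and the Microacinar tumour. No label states that tumours are from different animals, so p-values measure only the spread between these samples, which may in part be technical.

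In a healthy cell the survival proteins hold the effectors and the BH3-only proteins in check. When BH3-only proteins accumulate, they occupy the survival proteins or engage the effectors directly, the outer mitochondrial membrane becomes permeable, and cytochrome c reaches Apaf1 and the caspases. Myc drives proliferation and also sensitises cells to apoptosis. The T58A form is stabilised because a phosphorylation site that marks Myc for degradation is lost, and it is known for failing to induce Bim. In the mammary gland Bim also acts in lumen clearing and in involution after lactation.

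No gene of the family passed the test between histologies, and no other gene did. With limma and Benjamini-Hochberg adjustment over all genes, 0 of the 9 measured genes passed an adjusted p of 0.05 between EMT and Squamous tumours, and 0% of all genes did. At an unadjusted p under 0.05 there were 2 of the 9, Bak1 and Bbc3, against 14.3% of all genes, which is 1778. The median log2 fold change (EMT minus Squamous, all values log2 as deposited) was 0.0018 for the 9 genes and 0.0064 for all genes, with 5 of the 9 above 0 and 4 below. In 0 of the 9 genes did the 6 EMT and 9 Squamous tumours occupy separate ranges, which 0.25% of all genes do.

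The arrays came in 2 title formats, and this touches several of the genes. The titles of 14 arrays are numbered, and those of EMT 5, EMT 6 and Squamous 9 carry TM after a number. In the model 40.4% of all genes differed between the formats at an adjusted p of 0.05, so title format is a term of every fit, and values among the 12 numbered EMT and Squamous arrays are given where they differ. EMT 5 and EMT 6, on TM arrays, had means of 10 luminal epithelium markers of 6.52 and 7.73. These means were 11.23, 10.53, 11.92 and 7.81 in the numbered EMT 1, EMT 2, EMT 3 and EMT 4, and 10.44 in Squamous 9. The part of tumour content in the title format term was not tested. On all 3 TM arrays 2989 probe sets (13.2%) have exactly equal values, against at most 1 on any 3 numbered arrays. The probe sets of Bcl2 (6.98) and Bbc3 (7.49) are among them, so the TM arrays carry no difference between tumours for those genes, and their results are given on the numbered arrays. Probe sets equal on only some of the TM arrays were not counted. The Mcl1 set used here is such a set, with 12.2383 in both EMT 5 and Squamous 9. Array medians lay between 7.23 and 7.40. RNA integrity, read from the Gapdh control as its 3′ value minus its 5′ value, lay between −0.029 and 0.387 in EMT tumours and between −0.022 and 0.382 in Squamous tumours, and its 3 lowest values were those of the TM arrays. The same difference for beta-actin lay between 0.44 and 0.82 in EMT and between 0.62 and 0.96 in Squamous tumours, with EMT 2 (0.54), EMT 3 (0.496) and EMT 6 (0.44) below every Squamous tumour. The part of RNA integrity in the results was not tested. In bulk tissue, fewer cells of a type and less RNA per cell cannot be told apart.

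**Figure D1:**
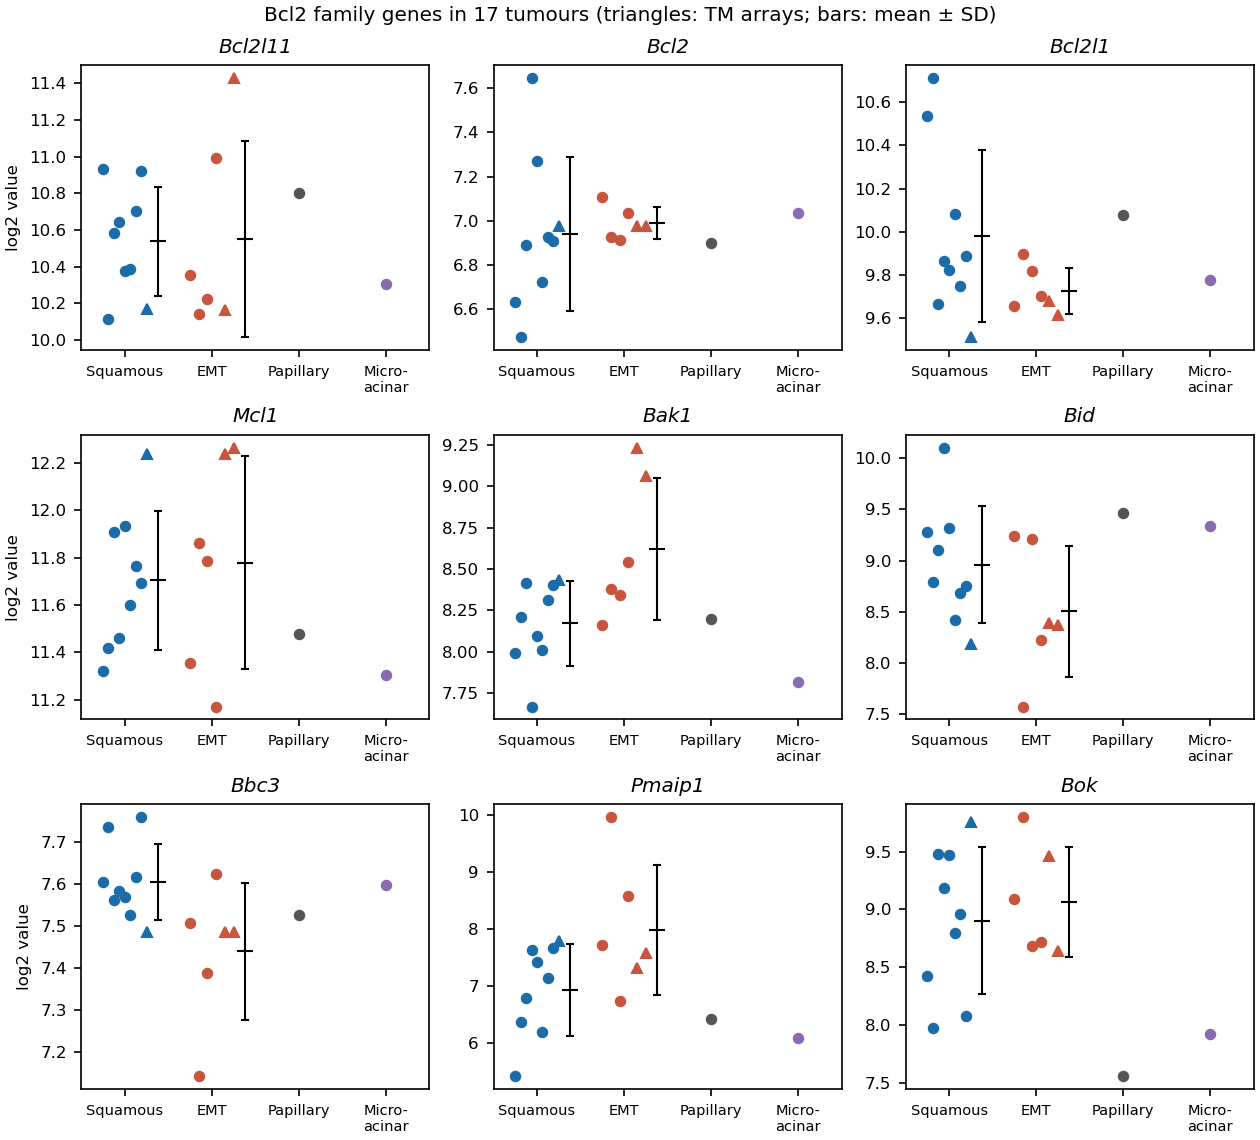
Log2 value (vertical axis) of 9 Bcl2 family genes in 17 tumours, by histology label; each point is 1 tumour, drawn from left to right in the order of its number, triangles are the 3 TM arrays, and bars are mean ± SD of the 9 Squamous and 6 EMT tumours. EMT 6 has the highest Bcl2l11, EMT 2 the highest Pmaip1, and the TM arrays the highest Mcl1; no gene separates EMT from Squamous tumours.

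Among the BH3-only genes, Bcl2l11 encodes Bim, which binds all the survival proteins and can activate Bax and Bak directly. The gene lies on mouse chromosome 2 (GRCm38.p6, 128126038 to 128162547, plus strand). In Squamous tumours Bcl2l11 had a lowest value of 10.11 in Squamous 2, a median of 10.58 and a highest of 10.93 in Squamous 1. In EMT tumours the lowest value was 10.14 in EMT 2, the median 10.29 and the highest 11.43 in EMT 6. The EMT tumours thus hold both low and high values: EMT 4 (10.99) and EMT 6 lay above every Squamous tumour, and the other 4 lay below the Squamous median. Squamous tumours had a mean of 10.54 ± 0.30 (SD, n = 9) and EMT tumours a mean of 10.55 ± 0.54 (SD, n = 6). The log2 fold change was 0.0018 (SE 0.22, 95% interval −0.47 to 0.47, limma adjusted p = 0.997), and among numbered arrays it was −0.15 (SE 0.19, adjusted p = 0.781). By an exact two-sided permutation test over the 5005 splits of the 15 tumours the difference in means had p = 0.948. The Papillary tumour had 10.80 and the Microacinar tumour 10.30. The order of the label means was Papillary, EMT, Squamous, Microacinar, and no neighbours in it differed by more than the spread within EMT or Squamous tumours.

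Bim was read by 5 probe sets, which serve as a check on its pattern. EMT 6 was the highest of all 17 tumours on 5 of 5. Relative to the Squamous mean of each probe set, EMT 6 was higher by 0.89 on 1456005_a_at, the set used above, by 1.25 on 1435448_at, by 1.11 on 1435449_at, by 0.62 on 1456006_at and by 1.55 on 1426334_a_at. EMT 6 is a TM array. The other TM arrays, EMT 5 and Squamous 9, were at −0.38 and −0.37 from the Squamous mean on the set used above, at −0.28 and 0.17 on 1435448_at, at −0.57 and −0.44 on 1435449_at, at −0.23 and −0.48 on 1456006_at, and at 0.43 and 0.31 on 1426334_a_at. On that last set only EMT 6 and EMT 3 were higher than both. The part of title format in the EMT 6 values was not tested. EMT 4, on a numbered array, was at 0.46, 0.57, 0.42, 0.30 and −0.19 on the 5 sets in the same order. Squamous 2 was below the Squamous mean on all of them, by −0.42, −0.52, −0.65, −0.33 and −0.13. Across tumours the set used correlated with the next 3 by mean level at r = 0.78, 0.77 and 0.79 and with 1426334_a_at at r = 0.26 (n = 17, a description of sets on the same arrays); the last had a mean of only 5.34, near the lower quartile of every array. The log2 fold changes of the other 4 sets were 0.15, 0.25, 0.23 and 0.33, with adjusted p between 0.452 and 0.781 over all probe sets. The mean of the 4 sets with the highest levels, an alternative chosen after seeing the data, gave 0.16 (SE 0.19, adjusted p = 0.738).

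**Figure D2:**
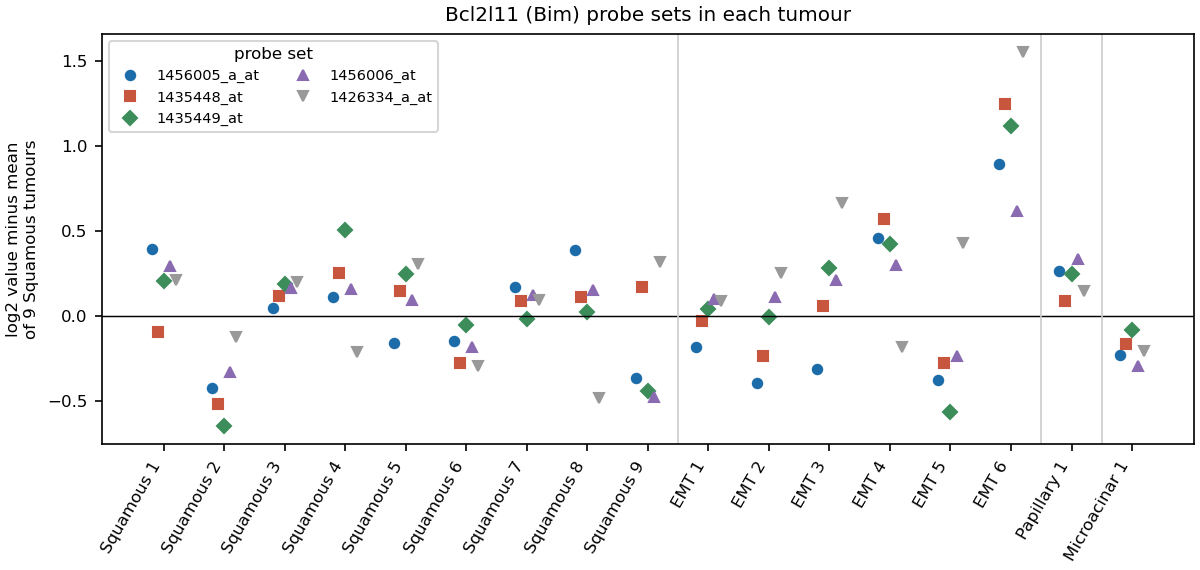
Log2 value minus the mean of the 9 Squamous tumours (vertical axis) for each of the 5 Bcl2l11 probe sets, by tumour (horizontal axis); grey lines separate the labels. EMT 6 is highest on every probe set, between 0.62 and 1.55 above the Squamous mean, and Squamous 2 is below 0 on every one.

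The upstream sequence of Bcl2l11 is shown because the forkhead factors Foxo3 and Foxo1, which activate Bim when survival signals fall, bind the letters GTAAACA, and because Myc binds the E-box CACGTG. Both motifs were searched on both strands of windows from 250 bases before to 50 after each RefSeq start (GRCm38.p6); the 2 motifs do not overlap and CACGTG reads the same on both strands. The 250 bases before the first Bcl2l11 start, chr2:128125788-128126037, plus strand, with the GTAAACA match in capitals, are:
Bcl2l11: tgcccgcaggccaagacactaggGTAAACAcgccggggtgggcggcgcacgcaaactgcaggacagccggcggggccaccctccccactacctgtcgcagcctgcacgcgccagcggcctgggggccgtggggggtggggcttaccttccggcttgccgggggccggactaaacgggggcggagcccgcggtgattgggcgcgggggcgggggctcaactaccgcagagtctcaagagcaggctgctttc
The match begins 227 bases before the start. Among 13 windows of 8 measured genes, GTAAACA was in 2, this Bcl2l11 window and a Bbc3 window, against 3.65% of all 32851 windows. No window of Pmaip1 was among the 13. CACGTG was in 1 of the 13, a Bbc3 window, against 7.15% of all windows. It is shown with its flanks, chr7:16310355-16310384, plus strand, the E-box in capitals:
Bbc3: gcggggcgggcgCACGTGgcggcgtcgagg
A match describes letters only and is no measure of binding. The levels of the forkhead genes did not pass the test between EMT and Squamous tumours: Foxo3 had a log2 fold change of −0.11 (SE 0.17, limma adjusted p = 0.790) and Foxo1 of −0.27 (SE 0.14, adjusted p = 0.394).

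Pmaip1 encodes Noxa, a BH3-only protein that binds Mcl1 and is induced by p53 and by cell stress. It varied most of the 9 genes, by 4.55 log2 units over the 17 tumours (23.5-fold), and its SD of 1.06 exceeded that of 92.0% of all genes. Squamous tumours had a lowest Pmaip1 of 5.41 in Squamous 1, a median of 7.14 and a highest of 7.79 in Squamous 9, and EMT tumours a lowest of 6.73 in EMT 3, a median of 7.65 and a highest of 9.96 in EMT 2. EMT 2 and EMT 4 (8.58) lay above all Squamous tumours, and the other 4 EMT tumours lay within the Squamous range. Means were 6.93 ± 0.81 (SD, n = 9) for Squamous and 7.98 ± 1.14 (SD, n = 6) for EMT. This gave a log2 fold change of 1.07 (SE 0.51, 95% interval −0.03 to 2.17, limma adjusted p = 0.359), the largest of the family. It was 0.57 without EMT 2. Among numbered arrays it was 1.43 (95% interval 0.18 to 2.67, limma unadjusted p = 0.0283, adjusted p = 0.498). There 3 of the 4 EMT tumours, EMT 1 (7.72), EMT 2 and EMT 4, lay above every Squamous tumour on those arrays. In that fit Pmaip1 and Bbc3, but not Bak1, were under an unadjusted p of 0.05, as were 9.38% of all genes. EMT 2 also had the highest mean of the basal epithelium markers of all tumours, 12.90 against at most 11.96 in Squamous tumours (5 of 6 listed markers measured); the part of this in its Pmaip1 value was not tested. The Papillary (6.41) and Microacinar (6.09) tumours lay below every EMT tumour in Pmaip1 and within the Squamous range.

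Bid encodes the BH3-only protein that caspase 8 cleaves, and so links death receptors to mitochondria. Squamous tumours ranged from 8.19 in Squamous 9 over a median of 8.79 to 10.10 in Squamous 4, and EMT tumours from 7.57 in EMT 2 over a median of 8.38 to 9.24 in EMT 1. EMT 2, the tumour with the most Pmaip1, had the least Bid of all 17. Squamous tumours averaged 8.96 ± 0.57 (SD, n = 9) for Bid and EMT tumours 8.502 ± 0.64 (SD, n = 6). The fitted log2 fold change was −0.36 (SE 0.30, limma adjusted p = 0.612), −0.08 without EMT 2 and −0.49 among numbered arrays (SE 0.36, adjusted p = 0.650). A second Bid probe set followed the same pattern at r = 0.97 over 17 tumours and gave −0.20 (SE 0.21). On that set the TM arrays of EMT 5 and EMT 6 both held 6.87946. The Papillary (9.46) and Microacinar (9.33) tumours lay above every EMT tumour in Bid.

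Bbc3 encodes Puma, a BH3-only protein and p53 target, and had the smallest spread of the 9 genes. On the 14 numbered arrays, which leave out its equal TM values, it ranged over 0.62 log2 units, or 1.53-fold, and 23.0% of genes had a lower SD there. On numbered arrays Squamous tumours averaged 7.62 ± 0.084 (SD, n = 8) and EMT tumours 7.42 ± 0.21 (SD, n = 4), with 3 of the 4 below every Squamous tumour on those arrays: EMT 1 at 7.51, EMT 2 at 7.14 and EMT 3 at 7.39. EMT 4, at 7.63, lay among the Squamous tumours. There the log2 fold change was −0.20 (SE 0.088, 95% interval −0.40 to −0.012, unadjusted p = 0.0396), and its limma adjusted p was 0.511, with 9.38% of all genes under an unadjusted p of 0.05 in that fit. With the TM arrays it was −0.16 (SE 0.076, adjusted p = 0.348), and with them but without EMT 2 it was −0.087 (SE 0.063, adjusted p = 0.579).

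Of the effectors, Bak1 encodes Bak, which forms pores in the outer mitochondrial membrane. Squamous tumours lay between 7.67 in Squamous 4 and 8.43 in Squamous 9, with a median of 8.21, and EMT tumours between 8.16 in EMT 1 and 9.23 in EMT 5, with a median of 8.46. EMT 4, EMT 5 and EMT 6 lay above all Squamous tumours. Means for Bak1 were 8.17 ± 0.26 (SD, n = 9) among Squamous tumours and 8.62 ± 0.43 (SD, n = 6) among EMT tumours. In the model Bak1 had a log2 fold change of 0.32 (SE 0.13, 95% interval 0.046 to 0.59). Its limma unadjusted p was 0.0251 and its limma adjusted p 0.292. The exact permutation test of the difference in plain means, 0.45, which leaves out the title format, gave p = 0.0190 before adjustment. Among numbered arrays the log2 fold change was 0.22 (SE 0.14, limma unadjusted p = 0.136, adjusted p = 0.602). Bak1 was higher on the TM arrays by 0.59 (SE 0.15, limma adjusted p = 0.00810), a term that 40.4% of genes share. Of the TM arrays, EMT 5 was at 9.23, EMT 6 at 9.06 and Squamous 9 at 8.43. On numbered arrays Squamous 3 was at 8.42 and Squamous 8 at 8.41. The part of tumour content in this term was not tested. The 8 macrophage markers, all measured, had mean log2 values from 9.95 to 12.76 in EMT and from 9.17 to 11.57 in Squamous tumours, and EMT 5 (12.76) and EMT 6 (12.34), with the highest Bak1 of all 17 tumours, had the highest macrophage means; the part of macrophages in the Bak1 values was not tested. A second Bak1 probe set, with a mean of 5.39, gave 0.097 (SE 0.11, adjusted p = 0.729).

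Bok, an effector-like protein of the endoplasmic reticulum and mitochondria that the survival proteins restrain little, ranged over 2.24 log2 units, with an SD above that of 81.1% of genes. Squamous tumours had a lowest Bok of 7.98 in Squamous 2, a median of 8.96 and a highest of 9.75 in Squamous 9. EMT tumours had a lowest of 8.64 in EMT 6, a median of 8.91 and a highest of 9.80 in EMT 2. The ranges overlap, and the log2 fold change was 0.081 (SE 0.30, 95% interval −0.57 to 0.73, limma adjusted p = 0.924), against 0.28 among numbered arrays (SE 0.32, adjusted p = 0.775). The Papillary tumour (7.56) and the Microacinar tumour (7.93) had less Bok than every one of the 15 other tumours, by −1.34 and −0.97 from the Squamous mean; with 1 tumour of each label there is no test.

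Among the survival genes, Mcl1 encodes a short-lived protein that binds Bim, Noxa and Bak. Its values lay between 11.32 in Squamous 1 and 12.24 in Squamous 9 in Squamous tumours, with a median of 11.69, and between 11.17 in EMT 4 and 12.26 in EMT 6 in EMT tumours, with a median of 11.82. The 3 TM arrays had the 3 highest values, 12.24 in EMT 5, 12.26 in EMT 6 and 12.24 in Squamous 9, and the title format term was 0.67 (SE 0.16, limma adjusted p = 0.00459). EMT 5 and Squamous 9 both held 12.2383, so these arrays carry no difference between the 2 tumours. Between EMT and Squamous tumours the log2 fold change was −0.073 (SE 0.13, 95% interval −0.35 to 0.21, limma adjusted p = 0.832), and among numbered arrays it was −0.094 (SE 0.16, adjusted p = 0.845). The difference in plain means was 0.075, of opposite sign, because it leaves out the title format. The 5 other Mcl1 probe sets gave between −0.26 and 0.11, with adjusted p from 0.352 to 0.821; on 1 of them, 1456243_x_at, the 3 TM arrays again had exactly equal values.

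Bcl2l1 encodes Bcl-xL (and, by splicing, the shorter pro-apoptotic Bcl-xS). Squamous tumours ranged from 9.51 in Squamous 9 over a median of 9.86 to 10.71 in Squamous 2, and EMT tumours from 9.61 in EMT 6 over a median of 9.69 to 9.90 in EMT 2. The EMT tumours were close together, 9.73 ± 0.11 (SD, n = 6), whereas the Squamous tumours spread more, 9.98 ± 0.40 (SD, n = 9), because Squamous 1 (10.54) and Squamous 2 stood above all others. The log2 fold change was −0.19 (SE 0.16, limma adjusted p = 0.612), −0.11 without Squamous 2 and −0.27 among numbered arrays (SE 0.19, adjusted p = 0.636). Other probe sets of Bcl2l1 had log2 fold changes of −0.013, 0.029 and 0.015, so only the first shared the sign. In the same order their r with the set used was 0.78, 0.34 and 0.43, and their means were 7.63, 6.12 and 4.17.

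Bcl2 is the founding survival gene and is highly expressed in lymphocytes. On numbered arrays Squamous tumours averaged 6.93 ± 0.37 (SD, n = 8) and EMT tumours 6.995 ± 0.092 (SD, n = 4). Squamous 4 (7.64) and Squamous 5 (7.27) were the highest and Squamous 2 (6.47) and Squamous 1 (6.63) the lowest of all tumours. On those arrays the log2 fold change was 0.062 (SE 0.18, 95% interval −0.34 to 0.46, limma adjusted p = 0.921). The mean of the 6 measured B and plasma cell markers (of 7 listed) was 6.15, 6.53 and 6.18 in Squamous 2, Squamous 1 and Squamous 6, the Squamous tumours with the least Bcl2 (6.47, 6.63 and 6.72), and these were the lowest means of that label. It was 6.77 in Squamous 4, 7.88 in Squamous 5 and 9.15 in Squamous 8, where Bcl2 was 6.91. In the 4 EMT tumours on numbered arrays the marker mean lay between 5.84 and 6.34, and Bcl2 lay between 6.91 and 7.11. The part of B cells in the Bcl2 values was not tested.

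**Figure D3:**
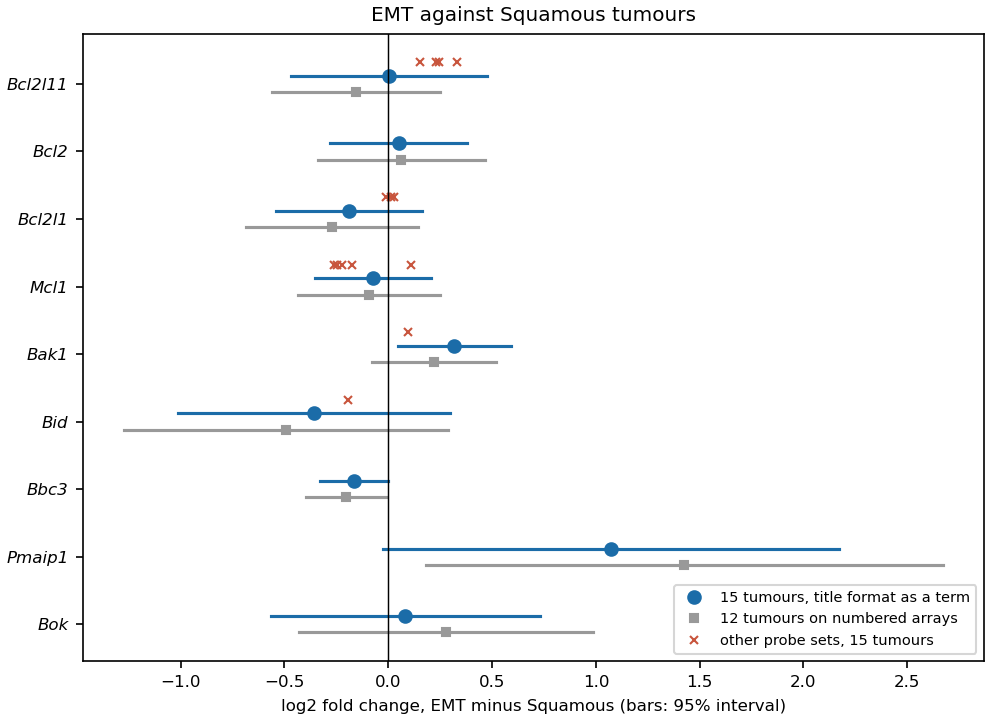
Log2 fold change, EMT minus Squamous (horizontal axis), of each gene; circles and bars are the limma estimate and 95% interval over 15 tumours with title format as a term, squares the same over the 12 tumours on numbered arrays, and crosses the other probe sets of a gene. The estimate for Bcl2l11 is near 0, that for Pmaip1 is the largest at 1.07, and none passed the adjusted threshold.

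Squamous 1 and Squamous 2 lay at an edge of their label for Bcl2 and Bcl2l1. They had the lowest Bcl2 and the highest Bcl2l1 of all 17 tumours, and Squamous 1 had the lowest Pmaip1. Their Myc values were 11.84 and 12.29, and those of Squamous 7 and Squamous 8 were 12.15 and 11.87. In Bcl2l11 Squamous 1 was the highest (10.93) and Squamous 2 the lowest (10.11) of the label. Their fibroblast means (8 of 8 markers measured) were 9.04 and 9.51, against 11.10 to 12.48 in the other 7 Squamous tumours. The part of stroma in these values was not tested. Epithelial content was uneven among EMT tumours: the mean of the 10 luminal markers, all measured, lay between 10.44 and 11.77 in Squamous tumours, and was 7.81, 6.52 and 7.73 in EMT 4, EMT 5 and EMT 6 against 11.23, 10.53 and 11.92 in EMT 1, EMT 2 and EMT 3. Bcl2l11 was 10.99, 10.16 and 11.43 in EMT 4, EMT 5 and EMT 6. The mean of the 7 skeletal muscle markers, all measured, was 11.50, 5.02 and 9.04 in these tumours. The other tumours with the highest muscle means were Squamous 1 (8.83), Squamous 3 (9.71), Squamous 6 (9.69), EMT 2 (8.09), Papillary (10.41) and Microacinar (10.81). Their Bcl2l11 values were 10.93, 10.58, 10.39, 10.14, 10.80 and 10.30 in that order. In the remaining tumours Bcl2l11 ranged from 10.11 in Squamous 2 (muscle mean 5.31) to 10.92 in Squamous 8 (5.22). The part of luminal epithelium and of muscle in the Bcl2l11 values was not tested.

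Every tumour carries the Myc transgene, and the apoptosis genes were set against the graded level of Myc RNA, read by probe set 1424942_a_at. Whether this set reads the transgene, the endogenous gene or both was not tested. The lowest log2 value of Myc was 9.18, in EMT 4, and the highest 12.40, in EMT 1. In a limma model over the 15 EMT and Squamous tumours, with histology and title format as terms, 0 of the 9 genes and 0% of the 12392 genes other than Myc had a slope on Myc past an adjusted p of 0.05; 1 of the 9, and 18.1% of genes (2239), were under an unadjusted p of 0.05. Bcl2l11 had a slope of −0.0094 per log2 unit of Myc (SE 0.12, 95% interval −0.26 to 0.24, adjusted p = 0.976). Over all 17 tumours its Pearson r with Myc was −0.048 (permutation p = 0.857) and Spearman's rho 0.015 (permutation p = 0.959), and r was 0.17 without EMT 1 and Squamous 2, the tumours farthest from the median of Myc. Within labels r was 0.31 in the 9 Squamous and −0.32 in the 6 EMT tumours. No relation of Bim RNA to the Myc level was detected among these tumours.

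Bok had the slope with the smallest p. It was −0.31 log2 units per unit of Myc (SE 0.13, 95% interval −0.60 to −0.020, unadjusted p = 0.0378), a slope that did not pass adjustment (limma adjusted p = 0.251). The slope was −0.48 without EMT 1 (adjusted p = 0.188) and −0.172 over all 17 tumours with no histology term (adjusted p = 0.643). Over all 17 tumours r was −0.35 (permutation p = 0.165) and rho −0.43 (permutation p = 0.0873). The r was −0.34 without the same pair of tumours and −0.27 on the 14 numbered arrays. Among the 9 Squamous tumours r was −0.88, and among the 6 EMT tumours −0.075. The fibroblast means were 9.04 and 9.51 in Squamous 1 and Squamous 2, where Myc was high and Bok low, and 11.97, 11.78, 11.68 and 12.48 in Squamous 3, Squamous 4, Squamous 5 and Squamous 9, the Squamous tumours with the least Myc and the most Bok. They were 11.10, 11.60 and 11.70 in Squamous 6, Squamous 7 and Squamous 8, where Bok was 8.79, 8.96 and 8.08. In the same order Myc was 11.40, 12.15 and 11.87 there. The part of stroma in this relation was not tested. In Squamous tumours alone the limma slope was −0.51 (SE 0.12, unadjusted p = 0.00241, adjusted p = 0.338); there the title format term takes up Squamous 9, the only TM array. A slope for each label, an alternative added after seeing the data, differed by 0.52 between EMT and Squamous tumours (SE 0.21, limma adjusted p = 0.283), a test that 0.234% of all genes passed. The same difference was 0.56 for Bid (SE 0.27, adjusted p = 0.350) and −0.27 for Bcl2l1 (SE 0.13, adjusted p = 0.367). It was −0.22 for Bak1 (SE 0.11, adjusted p = 0.371) and, with its equal TM values, 0.25 for Bcl2 (SE 0.12, adjusted p = 0.363). For Bcl2l11, Mcl1, Bbc3 and Pmaip1 it lay between −0.24 and 0.097.

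Of the other genes, Pmaip1 had a slope of −0.46 (SE 0.24, limma adjusted p = 0.332), with r = −0.41 (permutation p = 0.0982) and rho = −0.39 (permutation p = 0.127). Bcl2l1 had a slope of 0.11 (SE 0.080, adjusted p = 0.487), which was 0.051 without Squamous 2 and 0.20 without EMT 1, with r = 0.50 (permutation p = 0.0382) and rho = 0.35 (permutation p = 0.171), and r was 0.66 in Squamous and −0.14 in EMT tumours. Bcl2, on numbered arrays, had a slope of −0.13 (SE 0.080, limma adjusted p = 0.418). The r values over all 17 tumours given here and above are 4 of 9 relations examined with Myc. The limma values are adjusted over all genes. The slopes of Mcl1, Bak1, Bid and Bbc3 lay between −0.061 and 0.062 with adjusted p from 0.658 to 0.981, where Bbc3 includes its equal TM values. In Squamous tumours r with Myc was −0.66, 0.048, −0.23 and 0.69 for these genes in that order. In EMT tumours it was −0.24, −0.56, 0.77 and −0.012. For Bcl2 r was −0.64 in Squamous and 0.44 in EMT tumours, and for Pmaip1 −0.49 and −0.37. The slope of Bcl2 in Squamous tumours alone was −0.26 (SE 0.10, limma unadjusted p = 0.0364, adjusted p = 0.351). Without EMT 4, the tumour with the least Myc, the slope of Mcl1 was −0.15 (unadjusted p = 0.0153, limma adjusted p = 0.224) and that of Bbc3 0.083 (unadjusted p = 0.0386, adjusted p = 0.299). Without EMT 4 the slope of Bok was −0.44 (adjusted p = 0.194).

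**Figure D4:**
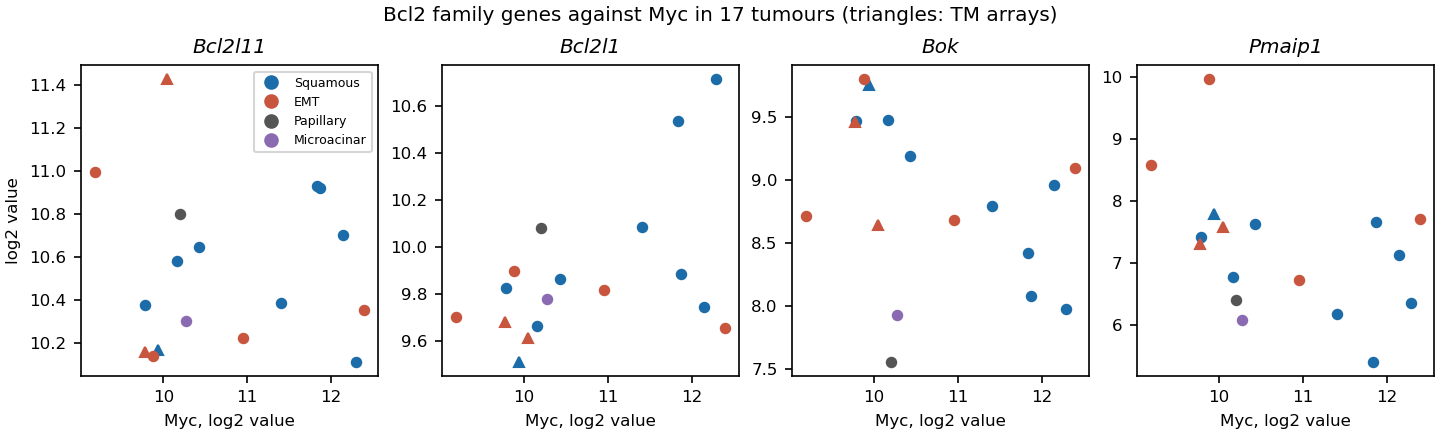
Log2 value of 4 Bcl2 family genes (vertical axes) against the log2 value of Myc (horizontal axes) in 17 tumours, coloured by label, with triangles for the TM arrays. Bcl2l11 shows no trend with Myc (r = −0.048), while Bok is lower where Myc is higher among Squamous tumours (r = −0.88, 9 tumours) and lies lowest in the Papillary and Microacinar tumours.

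Within the family, Bcl2l11 followed none of the 8 other genes closely, with Pearson r between −0.35 and 0.33 over 17 tumours, given as a description. Mcl1 and Bak1 had r = 0.67 over all tumours and r = 0.30 on the 14 numbered arrays, and Bak1 and Bid had r = −0.61 and −0.64. Among 6195 genes with a mean above the median gene, those whose pattern over 17 tumours was most like that of Bcl2l11 by Pearson r were Trmt1l (0.74), Phip (0.73), Kmt2a (0.67), Extl3 (0.67) and Zmynd8 (0.67). Spearman's rho was 0.56, 0.77, 0.57, 0.48 and 0.49 in the same order. For Bcl2, whose 3 TM values are equal, the most alike were Nck1 (0.83), Arhgef3 (0.79), Sptan1 (0.76), Ogt (0.75) and Stac2 (0.72). There rho was 0.74, 0.52, 0.77, 0.75 and 0.62. These genes were picked as the highest of all those compared, so the values are a description and carry no test.

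Of the pathway around the family, 0 of its 76 measured list entries (of 88) passed an adjusted p of 0.05 between EMT and Squamous tumours. Unadjusted p under 0.05 is given beside the 14.3% of all genes. The gene of each list with the largest change is named, and Tnfrsf10b is in 2 lists. Of 7 other survival relatives and Bag co-chaperones 0 were under it; their log2 fold changes had a median of 0.047, and Bag3, a chaperone partner, was at 0.29 (SE 0.15, adjusted p = 0.402). Of 12 other BH3 genes and mitochondrial membrane partners 3 were under it, with a median of −0.015; Bcl2l15, a BH3-containing relative, was at −1.55 (SE 0.71, adjusted p = 0.342). Of 12 apoptosome and caspase genes 3 were under it, with a median of −0.054; Apaf1, the scaffold that activates caspase 9, was at 0.86 (SE 0.28, adjusted p = 0.229).

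Of 7 inhibitors of apoptosis 2 were under an unadjusted p of 0.05, with a median of −0.22 that turned to 0.13 without the title format term. Birc5, survivin, which also acts in mitosis, was at 0.80 (SE 0.22, limma adjusted p = 0.191). Of 12 death receptor genes 4 were under it, with a median of 0.11. Ripk3, the kinase of necroptosis, was at 0.82 (SE 0.37, adjusted p = 0.333). Of 14 genes of p53 and its targets 3 were under it, with a median of 0.26. Trp53inp1, a p53-induced nuclear protein, was at −0.66 (SE 0.25, adjusted p = 0.274). Of 12 regulators of Bim and Mcl1 1 was under it, with a median of −0.058. Ddit3, the stress factor Chop that can induce Bim, was at 0.58 (SE 0.32, adjusted p = 0.427).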

How the data were processed

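Total RNA was labelled as biotinylated cRNA and hybridised to Affymetrix arrays, per the labels' protocols. What the authors deposited is 1 log2 value for each probe set and tumour. That the scale is log2 was inferred from the range of the numbers, and the summary and normalization methods are not given in the sources used here. They were used as deposited. Of 22690 probe sets, 64 controls were left out, 20380 had 1 gene symbol, 691 several and 1555 none; 20351 symbols matched the RefSeq table (GRCm38.p6) by gene identifier. Each of 12393 genes was represented by its probe set of highest mean level.

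For EMT against Squamous tumours, limma 3.58.1 (R 4.3.3) was fitted with title format as a term and Benjamini-Hochberg adjustment over all genes (threshold 0.05); a second fit took the slope on the Myc probe set with the highest mean, with histology as a further term. Permutation p-values for correlations used 100000 permutations. Python 3.11.15, pandas 2.3.3 and scipy 1.17.1 were used. The models were also run on simulated data, and the outcome is not given here. The number of arrays limits the precision.

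The genes, lists and tests were chosen with earlier results of these data known. The text names the listed genes, Myc, from each pathway list up to 3 genes past the threshold or else the largest change, and the 5 genes most like Bcl2l11 and Bcl2; Foxo1 and Foxo3 were named in addition after their values were seen. Alternatives were no title format term, numbered arrays only, quantile normalization, subtracted medians, the mean of probe sets, single probe sets, a trended robust fit, only genes above the median level, array weights, Squamous 7 and 8 averaged, all 17 tumours in the fit, Squamous tumours only, no histology term, exact permutation, and leaving out each tumour. No genome sequence was used beyond RefSeq's promoter windows.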

Additional observations from a re-analysis of the deposited data

How the results depend on the processing

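Under every alternative run, 0 of the 9 measured Bcl2 family genes passed the adjusted threshold, for EMT minus Squamous and for the slope on Myc; estimates near 0 changed sign. For EMT minus Squamous on the log2 scale, Bcl2l11 was −0.15 among numbered arrays, −0.033 with quantile normalization and −0.061 with array weights, and between −0.15 and 0.10 when tumours were left out in turn. Mcl1 was 0.075 without the title format term and in the exact permutation test, and 0.11 on probe set 1416881_at; Bcl2 was −1.9e-05 and Bok −0.12 with array weights; Bcl2l1 was 0.029 on probe set 1426191_a_at and 0.015 on 1426050_at. With tumours left out, Bcl2 lay between −0.0032 and 0.13, Mcl1 between −0.15 and 0.026 and Bok between −0.14 and 0.28. For the slope on Myc, Bcl2l11 was 0.042 with array weights and 0.039 in Squamous tumours alone; Bak1 was 0.0091 with the mean of its probe sets and 0.066 in Squamous tumours; Bid was −0.11 with array weights and −0.31 in Squamous tumours. With tumours left out, the slope lay between −0.044 and 0.077 for Bcl2l11, between −0.036 and 0.057 for Bak1 and between −0.055 and 0.14 for Bid. The cause of these changes was not tested. Over all genes, the calls between EMT and Squamous went from 0 to between 0 and 14 (14 without EMT 1); for the slope on Myc they went from 0 to 2 with Squamous 7 and Squamous 8 averaged, and to between 0 and 155 with tumours left out (155 without Squamous 7, 2 without EMT 3, 1 without Squamous 1). None of these calls was a Bcl2 family gene. The fit on genes above the median level could not hold Bcl2, Bbc3 and Pmaip1. No paired analysis was possible because replicate numbers were given in accession order and pair no tumours. Leaving out Squamous 9 gives the numbered-array estimates, since the title format then takes up EMT 5 and EMT 6.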
